A study of Mus musculus with 24 samples.

Results

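Collagen genes, taken as every symbol made of Col, a number, the letter a and a number, were compared between 2 inbred mouse strains in the granule neurons of the dentate gyrus. The rule found 44 of the 33902 symbols of a single-nucleus RNA sequencing (snRNA-seq) table. Nuclei came from the ventral hippocampus of adult male C57BL/6J (B6) and DBA/2J mice (D2, called DBA in the labels), aged 10 to 16 weeks. Tissue of about 2 animals was combined in each library, 2 libraries were made per strain, and nuclei for snRNA-seq had been sorted to enrich for NeuN, a neuronal nuclear protein. The table holds counts summed over the nuclei of each of 17 cell types in each library. It numbers libraries 2 and 3 where the labels number replicates 1 and 2, so its columns could be given to a strain but not to a sample, and a strain has as many columns as samples only within a single cell type. The dentate granule neurons (Exc-DG) were used, chosen for their depth after values had been seen, and levels in the other cell types are not analysed here. Accessible chromatin of the same cell type was measured by single-nucleus ATAC sequencing (snATAC-seq), also in 2 libraries per strain.

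Collagens are extracellular or membrane-bound proteins whose chains wind into a triple helix, and each gene encodes a single chain. Fibrillar collagens assemble into the fibers of connective tissue, type IV collagens form the network of basement membranes, type VI collagens form beaded filaments, fibril-associated collagens sit on the surface of fibers, and transmembrane collagens are anchored in the plasma membrane, from which their outer part can be shed. Brain tissue holds its dense collagen in the meninges and around vessels, but some fibril-associated and transmembrane members are also known from neurons.

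Exc-DG totals were 10456569 and 11352265 counts in B6 and 9007032 and 7895793 counts in D2, and levels are given as CPM, the count divided by these totals and multiplied by 1000000, with library 2 before library 3. The dentate markers Prox1, C1ql2 and Dsp were present in every library and summed to 359 and 377 CPM in B6 and 279.6 and 292 CPM in D2. All 3 were lower in D2 by the test used for the members. Over the 17 marker classes checked, the summed markers were lower in both D2 libraries for 12, higher for 1 and overlapped for 4. Of 56 markers, 41 were tested, and 3 were higher and 11 lower in D2. Of all 17723 transcripts tested, 36% were called, 22.2% higher and 13.8% lower in D2, and 66.8% did not overlap between strains. Markers of oligodendrocytes summed to 63.9 and 66.9 CPM in B6 and 36.0 and 31.7 CPM in D2 and those of oligodendrocyte precursors to 6.69 and 5.99 CPM in B6 and 3.77 and 3.42 CPM in D2, while fibroblast markers summed to 13.2 and 14.5 CPM in B6 and 19.7 and 18.9 CPM in D2. Choroid plexus markers summed to 12.1 and 19.8 CPM in B6 and 7.99 and 5.70 CPM in D2. Those of microglia summed to 342 and 329 CPM in B6 and 284 and 293 CPM in D2. Most of this was P2ry12, at 312 and 299 CPM in B6 and 257 and 260 CPM in D2, and Cx3cr1, Csf1r and C1qa overlapped. Markers of Lamp5 interneurons summed to 20.8 and 21.6 CPM in B6 and 14.1 and 14.7 CPM in D2, where only Reln was called. Those of interneurons from the caudal ganglionic eminence summed to 1203 and 1260.1 CPM in B6 and 882 and 876 CPM in D2. Most of this was Adarb2, at 1184 and 1242 CPM in B6 and 862 and 858 CPM in D2, and Vip and Cnr1 overlapped. Against that direction, the endothelial Flt1 read 0.574 and 0.264 CPM in B6 and 2.22 and 1.52 CPM in D2. The Cajal-Retzius marker Trp73 read 0.383 and 0.352 CPM in B6 and 5.0 and 4.81 CPM in D2. Both were called higher, as was the fibroblast marker Lum. Endothelial markers summed to 2.68 and 3.26 CPM in B6 and 5.66 and 3.17 CPM in D2 and overlapped. Cajal-Retzius markers summed to 10.328 and 12.77 CPM in B6 and 10.325 and 8.49 CPM in D2. Among them Reln was called lower, at 8.70 and 11.4 CPM in B6 and 4.77 and 2.66 CPM in D2. Astrocyte markers, at 220.1 and 228 CPM in B6 and 221 and 217 CPM in D2, overlapped. The part of these shifts in the results was not tested. In sums over nuclei, fewer cells of a subtype and less RNA per cell cannot be told apart.

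Of the 44 members, 35 had a window of 300 bases around a start site in RefSeq (GRCm38.p6), running from 250 bases before the start to 50 after it. The windows of the transmembrane genes Col23a1 and Col25a1, of Col11a1 and of Col6a1 are printed because their transcripts differed between the strains in every fit tried and a peak of accessible chromatin lay at each of their starts. They lie at chr11:51289670-51289969 on the plus strand, chr3:130180595-130180894 on the plus strand, chr3:114030290-114030589 on the plus strand and chr10:76725995-76726294 on the minus strand. The Col25a1 window and its peak lie inside the annotated span of the gene (chr3:130131501-130599877), downstream of its first base. Capitals mark the letters CCAAT, the GC box letters GGGCGG and the TATA box letters TATAAA, each read on both strands. The letters are those of the reference, and D2 variants were not examined.
Col23a1: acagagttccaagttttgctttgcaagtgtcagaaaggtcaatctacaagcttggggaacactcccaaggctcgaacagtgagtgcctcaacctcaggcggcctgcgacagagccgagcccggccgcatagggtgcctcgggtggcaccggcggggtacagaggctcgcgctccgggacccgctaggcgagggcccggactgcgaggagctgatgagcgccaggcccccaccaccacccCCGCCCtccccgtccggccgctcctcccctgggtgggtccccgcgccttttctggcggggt
Col25a1: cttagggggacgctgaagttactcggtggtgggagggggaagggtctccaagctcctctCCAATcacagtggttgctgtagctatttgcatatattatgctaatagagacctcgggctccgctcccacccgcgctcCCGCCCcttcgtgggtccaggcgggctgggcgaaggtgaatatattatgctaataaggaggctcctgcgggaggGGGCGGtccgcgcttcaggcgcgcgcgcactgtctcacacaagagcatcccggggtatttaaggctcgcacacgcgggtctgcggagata
Col11a1: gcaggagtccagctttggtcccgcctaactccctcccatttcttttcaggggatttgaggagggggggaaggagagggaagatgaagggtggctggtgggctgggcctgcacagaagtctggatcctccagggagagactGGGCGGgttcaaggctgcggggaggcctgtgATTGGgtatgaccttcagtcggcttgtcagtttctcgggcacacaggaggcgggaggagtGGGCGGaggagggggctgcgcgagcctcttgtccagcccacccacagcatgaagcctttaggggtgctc
Col6a1: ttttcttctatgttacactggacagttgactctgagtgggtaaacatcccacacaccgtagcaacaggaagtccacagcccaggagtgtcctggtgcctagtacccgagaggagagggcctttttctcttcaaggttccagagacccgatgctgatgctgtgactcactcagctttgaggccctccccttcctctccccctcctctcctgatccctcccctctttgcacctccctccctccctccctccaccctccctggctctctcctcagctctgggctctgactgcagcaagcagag
Col23a1 has 1 GGGCGG, Col25a1 and Col11a1 have 2 GGGCGG and 1 CCAAT each, and the Col6a1 window holds none of the 3 motifs. The 35 members have 38 such windows in all. GGGCGG was present in 23 of the 38 collagen windows (60.5%) and in 35.7% of the 32851 windows of all genes. CCAAT was present in 13 of the 38 (34.2%) against 37.4%, and TATAAA in 5 (13.2%) against 13.6%. A match describes the letters of the window only.

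In Exc-DG, 6 collagen transcripts were lower and 1 was higher in D2 than in B6. Col11a1 and Col5a2, chains of fibrillar collagens, and the transmembrane Col23a1 had 5.45, 4.72 and 3.31 times as much transcript in B6, and Col25a1, also transmembrane, 1.48 times as much. Col6a1, a beaded filament chain, was 2.06-fold higher in D2. Strains were compared by edgeR's quasi-likelihood test with p-values adjusted by Benjamini-Hochberg over all transcripts tested, and a transcript was called at an adjusted p under 0.05. Of the 44 members, 27 passed the filter on low counts and 7 were called (25.9%), where 36% of all 17723 transcripts tested were called, 22.2% higher and 13.8% lower in D2. Of all transcripts tested, 1856 had no count in either B6 library and 108 none in either D2 library, and all 1856 were called higher in D2. No tested member had such an absence. Among transcripts with counts in both strains, 25.4% were called, 11.7% higher and 13.7% lower, and the share of calls that were higher in D2 was 46.2% in place of 61.6%. The median log2 difference was -0.10 over the 27 tested members and 0.06 over all transcripts tested.

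**Figure D1:**
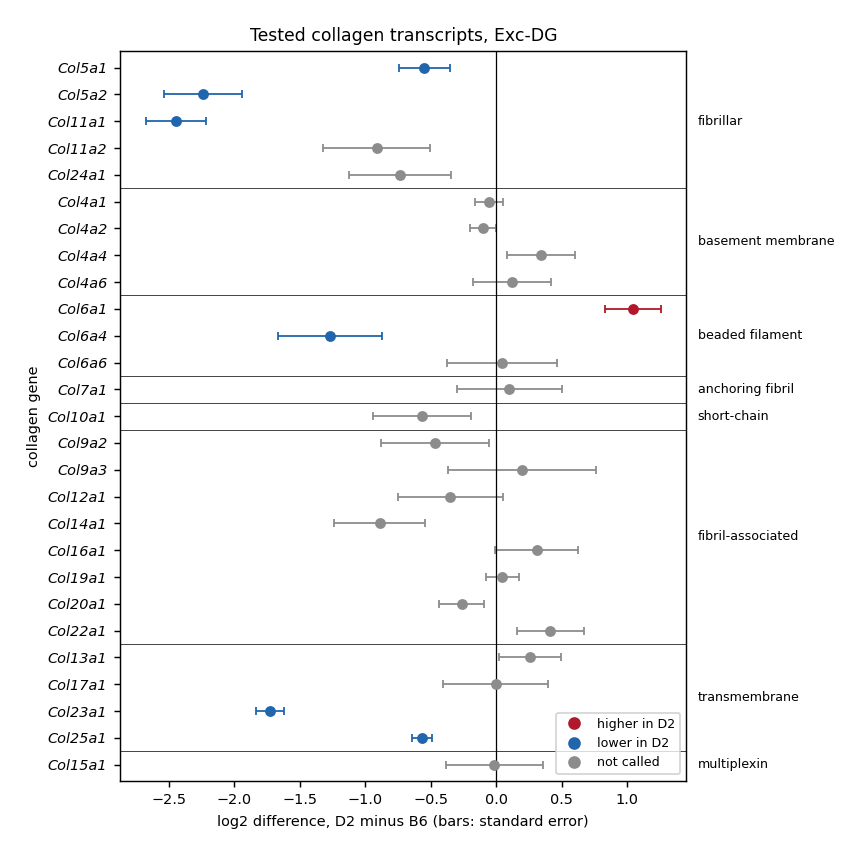
Log2 difference, D2 minus B6, of the 27 tested collagen transcripts in Exc-DG, grouped by role, with standard errors derived from edgeR's F statistic, 2 libraries per strain. The 6 transcripts lower in D2 are fibrillar, beaded filament or transmembrane chains, Col6a1 is the 1 higher, and all tested fibril-associated and type IV members are uncalled. Roles were not compared by a test.

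Fibrillar chains gave 3 of the 7 calls, all lower in D2, with 5 fibrillar members tested. Of all transcripts tested, 36% were called and 13.8% were lower in D2 (25.4% and 13.7% with counts in both strains required). Each role holds few genes, and whether calls differed between roles was not tested. Col11a1, a chain of the type XI collagen that starts thin fibers (chr3:114030540-114220718, plus strand), read 10.1 and 11.5 CPM in B6 and 2.00 and 2.03 CPM in D2 (log2 difference -2.45 ± 0.23, adjusted p = 8.74e-07). These levels rest on 106 and 131 counts in B6 and 18 and 16 in D2, and both B6 libraries were far above both D2 libraries. Col5a2 and Col5a1 encode chains of type V collagen, which regulates fiber width. Col5a2 (chr1:45374321-45503282, minus strand) read 5.55 and 6.61 CPM in B6 and 1.55 and 1.01 CPM in D2 (log2 difference -2.24 ± 0.30, adjusted p = 2.95e-05). Its mean over the strains was under 5 CPM, and it was singled out after its values were seen. Col5a1 (chr2:27886425-28039514, plus strand) read 7.94 and 8.10 CPM in B6 and 6.0 and 5.07 CPM in D2 (log2 difference -0.55 ± 0.20, adjusted p = 0.0414), with no overlap between strains. Col5a1 lost its call without B6 library 2 (adjusted p = 0.0675), B6 library 3 (0.0832) or D2 library 3 (0.227), in DESeq2 (0.337), and where counts in both strains were required (0.0508). For members that were not called, the B6 libraries stand before and the D2 libraries after the word against. Col24a1 was at 1.72 and 1.41 against 1.11 and 0.760 CPM (log2 difference -0.74 ± 0.39, adjusted p = 0.167) and Col11a2 at 1.24 and 1.41 against 0.666 and 0.760 CPM (-0.91 ± 0.41, adjusted p = 0.117). Both were lower in the D2 libraries without overlap and neither passed the test. The other 6 fibrillar members, Col1a1, Col1a2, Col2a1, Col3a1, Col5a3 and Col27a1, held 7 to 32 counts over the 4 libraries and were not tested.

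**Figure D2:**
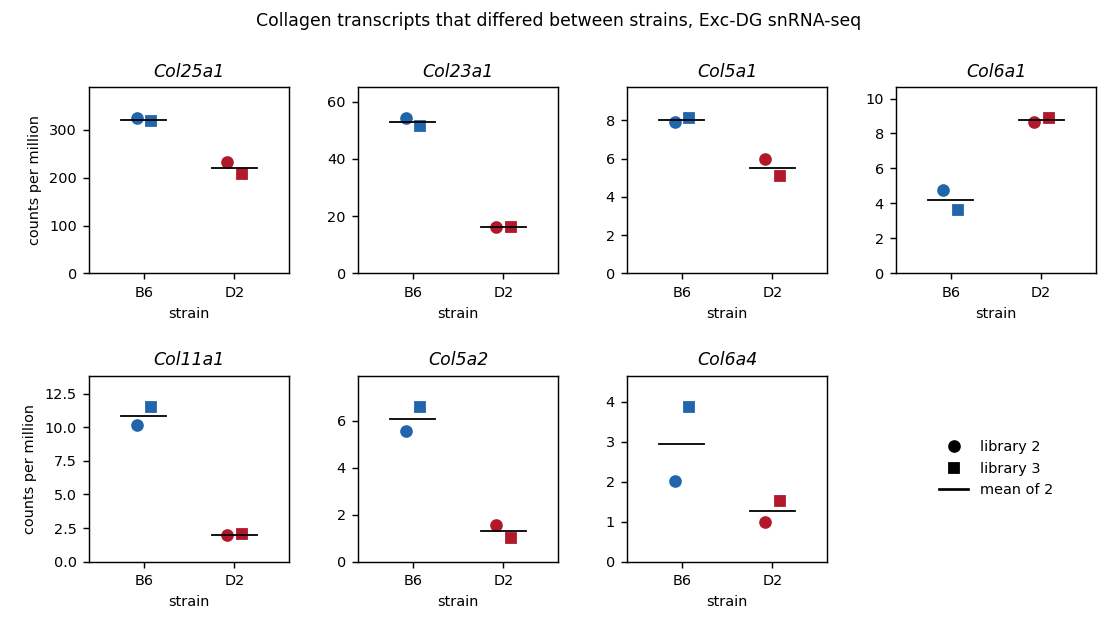
CPM of the 7 collagen transcripts called between strains in Exc-DG, with 1 point per library, circles for library 2, squares for library 3 and a line at the mean of 2. Every axis starts at 0. The B6 and D2 libraries do not overlap in any panel, and Col6a1 is the 1 panel with D2 on top.

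Transmembrane members gave the calls with the most counts. Col23a1 (chr11:51289920-51583918, plus strand) read 54.1 and 51.5 CPM in B6 and 16.2 and 16.2 CPM in D2 (log2 difference -1.73 ± 0.11, adjusted p = 1.18e-08). The 2 libraries of each strain lay close together, and the difference between strains far exceeded the spread within them. Col25a1, whose shed part is known from amyloid plaques (chr3:130131501-130599877, plus strand), read 324 and 318 CPM in B6 and 232 and 208 CPM in D2 (log2 difference -0.57 ± 0.08, adjusted p = 2.85e-05). A set of 3 symbols annotated as unverified transcripts lie inside Col25a1 on the same strand, and together they held no count in B6 and 77 counts in D2, against 3737 D2 counts of Col25a1 itself. With those counts added to the gene the log2 difference was -0.54 and the adjusted p 4.26e-05. Col13a1, a collagen of cell contacts, was at 3.54 and 4.05 against 4.66 and 4.56 CPM (0.26 ± 0.24, adjusted p = 0.440) and Col17a1, of hemidesmosomes, at 0.861 and 1.23 against 0.999 and 1.14 CPM (-0.01 ± 0.40, adjusted p = 0.993). Neither passed the test.

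Beaded filament chains were called in both directions. Col6a1 (chr10:76708792-76726168, minus strand) read 4.78 and 3.61 CPM in B6 and 8.66 and 8.87 CPM in D2 (log2 difference 1.04 ± 0.21, adjusted p = 0.00122), on 50 and 41 counts in B6 and 78 and 70 in D2. Col6a4 (chr9:105989454-106096783, minus strand) read 2.01 and 3.88 CPM in B6 and 0.999 and 1.52 CPM in D2 (log2 difference -1.27 ± 0.40, adjusted p = 0.0228). It rests on 21 and 44 counts in B6 and 9 and 12 in D2, was singled out after its values were seen, and lost its call without B6 library 3 (adjusted p = 0.318), without D2 library 2 (0.142) and in DESeq2 (0.220). Without B6 library 3 its log2 difference was -0.72. Col6a6, a chain thought to take the place of Col6a3 in the helix, was at 0.861 and 1.06 against 0.777 and 1.27 CPM (0.04 ± 0.42, adjusted p = 0.959). Col6a2, Col6a3 and Col6a5 held 3 to 31 counts and were not tested, so the usual partners of Col6a1 could not be followed.

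None of the 4 tested type IV genes passed the test, where 36% of all transcripts tested did (25.4% with counts in both strains required). Col4a1 and Col4a2, the chains of the most widespread basement membrane collagen, lie head to head on chromosome 8. Col4a1 was at 32.8 and 34.7 against 34.6 and 31.3 CPM (-0.05 ± 0.11, adjusted p = 0.736) and Col4a2 at 44.7 and 47.3 against 46.5 and 40.3 CPM (-0.10 ± 0.10, adjusted p = 0.477). Their libraries overlapped between strains. Col4a4 was at 3.35 and 4.14 against 5.66 and 3.93 CPM (0.34 ± 0.26, adjusted p = 0.341) and Col4a6 at 2.68 and 2.47 against 3.33 and 2.28 CPM (0.12 ± 0.30, adjusted p = 0.800), again overlapping. Col4a3 and Col4a5 held 24 and 29 counts and were not tested.

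Fibril-associated members made up 8 of the 27 tested and none was called, where 36% of all transcripts tested were called (25.4% with counts in both strains required). With so few genes, no difference between roles can be read from this. Col19a1, known from interneurons and from synapse formation in the hippocampus, was at 24.7 and 21.1 against 24.6 and 23.2 CPM (0.05 ± 0.12, adjusted p = 0.814). Col20a1 was at 13.7 and 12.9 against 12.8 and 9.50 CPM (-0.26 ± 0.17, adjusted p = 0.260), with D2 below B6 in both libraries. Col14a1, which binds fibers of type I collagen, was at 2.68 and 2.11 against 1.44 and 1.14 CPM (-0.89 ± 0.34, adjusted p = 0.0590) and was the 1 uncalled member with an unadjusted p under 0.05. Col22a1, a collagen of tissue junctions, was at 3.73 and 3.44 against 5.66 and 3.93 CPM (0.41 ± 0.26, adjusted p = 0.242). Col9a2 and Col9a3, chains of type IX, were at 1.05 and 1.06 against 0.777 and 0.760 CPM and 0.287 and 1.5 against 0.888 and 1.27 CPM, Col12a1 at 1.15 and 1.23 against 1.11 and 0.760 CPM and Col16a1 at 1.91 and 1.67 against 2.00 and 2.53 CPM. Those 4 had log2 differences from -0.47 to 0.31. Col9a1 held 3 counts and was not tested.

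Of the remaining members, Col7a1 (anchoring fibrils), Col10a1 (short-chain network) and Col15a1 (a multiplexin, a class whose ends can release antiangiogenic fragments) were tested and not called. Col7a1 was at 1.05 and 1.85 against 2.00 and 1.14 CPM (0.10 ± 0.40, adjusted p = 0.879), Col10a1 at 1.72 and 1.41 against 1.11 and 1.01 CPM (-0.57 ± 0.37, adjusted p = 0.288) and Col15a1 at 1.43 and 2.20 against 1.33 and 2.41 CPM (-0.02 ± 0.37, adjusted p = 0.981), and only Col10a1 was without overlap. Col10a1 lies inside Nt5dc1 on the opposite strand. Col8a1, Col8a2, Col18a1, Col26a1 and Col28a1 held 11 to 27 counts and were not tested. In all, 17 of the 27 tested members (63.0%) had strains that did not overlap, where 66.8% of all transcripts tested did not overlap. The 66.8% includes transcripts with no count in 1 strain.

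Collagen chains are modified and folded in the endoplasmic reticulum before export, trimmed and cross-linked outside the cell, and bound by integrins and discoidin domain receptors. Of a list of 45 genes of these steps, 29 were tested, and 6 were higher and 5 lower in D2 (37.9% called, against 36% of all transcripts). The median log2 difference of the 29 was -0.07. The list holds 13 genes of the prolyl 4-hydroxylase, prolyl 3-hydroxylase, lysyl hydroxylase and collagen galactosyltransferase families, which act on proline and lysine inside the cell. All 13 were tested, and 4 were higher, 2 lower and 7 not called (46.2% called, against 36% of all transcripts). With counts in both strains required, 8 genes of the list and 25.4% of all transcripts were called. Of the enzymes called, only P3h2 lost its call there. The 7 uncalled, P4ha1, P4ha2, P4hb, Plod1, Plod3, P3h3 and P3h4, had log2 differences from -0.57 to 0.26. Colgalt1, which adds galactose to hydroxylysine, read 29.6 and 33.5 CPM in B6 and 62.6 and 57.4 CPM in D2 (log2 difference 0.90 ± 0.10, adjusted p = 4.68e-06). Plod2, a lysyl hydroxylase, read 11.9 and 11.4 CPM in B6 and 22.9 and 21.9 CPM in D2 (log2 difference 0.93 ± 0.13, adjusted p = 5.65e-05). P3h1, a prolyl 3-hydroxylase, read 12.1 and 12.9 CPM in B6 and 18.9 and 20.9 CPM in D2 (log2 difference 0.64 ± 0.13, adjusted p = 0.00166). In these 3 genes every D2 library was above every B6 library, and each stayed called in every fit tried. P4ha3, a catalytic subunit of prolyl 4-hydroxylase, read 0.478 and 0.617 CPM in B6 and 2.22 and 2.53 CPM in D2 (log2 difference 2.06 ± 0.38, adjusted p = 6.26e-04), and DESeq2 did not call it (0.0534). P4ha3 rests on 5 and 7 counts in B6 and 20 and 20 in D2. It was named, like Colgalt2, Itga10, Ctsk and Loxl1, after its values were seen.

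The 2 lower calls among these families were Colgalt2 and P3h2. Colgalt2, the other galactosyltransferase, read 15.2 and 15.5 CPM in B6 and 11.8 and 9.50 CPM in D2 (log2 difference -0.54 ± 0.16, adjusted p = 0.0143), and P3h2, another prolyl 3-hydroxylase, 15.9 and 19.4 CPM in B6 and 14.7 and 11.7 CPM in D2 (log2 difference -0.44 ± 0.16, adjusted p = 0.0453). Both lost their call in DESeq2 (adjusted p = 0.144 and 0.247) and without D2 library 3 (0.142 and 0.314), and P3h2 also without B6 library 3 (0.223) and where counts in both strains were required (0.0534). The log2 difference of P3h2 was -0.27 without D2 library 3. Ddr1, a collagen receptor kinase, read 30.2 and 29.0 CPM in B6 and 37.7 and 42.8 CPM in D2 (log2 difference 0.42 ± 0.10, adjusted p = 0.00530). It lost its call without D2 library 3 (0.0668) and in DESeq2 (0.0696). Itga10, the alpha chain of a collagen-binding integrin, read 9.18 and 10.4 CPM in B6 and 5.88 and 4.18 CPM in D2 (log2 difference -0.97 ± 0.21, adjusted p = 0.00194) and stayed called in every fit. Bmp1, which trims the end of fibrillar chains, Ctsk, a collagen-cleaving protease, and Loxl1, a cross-linking enzyme, gave the remaining calls. Bmp1 read 40.3 and 43.3 CPM in B6 and 35.9 and 34.2 CPM in D2 (log2 difference -0.28 ± 0.10, adjusted p = 0.0412), Ctsk 2.30 and 1.23 CPM in B6 and 0.555 and 0.633 CPM in D2 (log2 difference -1.56 ± 0.47, adjusted p = 0.0176) and Loxl1 0.765 and 0.352 CPM in B6 and 1.44 and 1.27 CPM in D2 (log2 difference 1.26 ± 0.45, adjusted p = 0.0438). Each of the 3 lost its call in DESeq2 (adjusted p = 0.235, 0.250 and 0.479), and without D2 library 2 (0.0799, 0.121 and 0.293) or D2 library 3 (0.250, 0.0938 and 0.181). Where counts in both strains were required, Bmp1 (0.0542) and Loxl1 (0.0755) lost their calls, and Loxl1 also did where every transcript of at least 1 count was tested (0.0516). Without B6 library 3 the adjusted p was 0.158 for Bmp1 and 0.400 for Loxl1, and without B6 library 2 it was 0.248 for Ctsk and 0.0537 for Loxl1. Loxl1 had a log2 difference of 0.79 without B6 library 3 and 1.89 without B6 library 2. Serpinh1, the collagen chaperone, was not tested. Among the 18 uncalled genes, Itgb1, the shared beta chain of the collagen-binding integrins, was at 47.5 and 45.1 against 53.5 and 52.7 CPM (0.18 ± 0.09, adjusted p = 0.151).

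**Figure D3:**
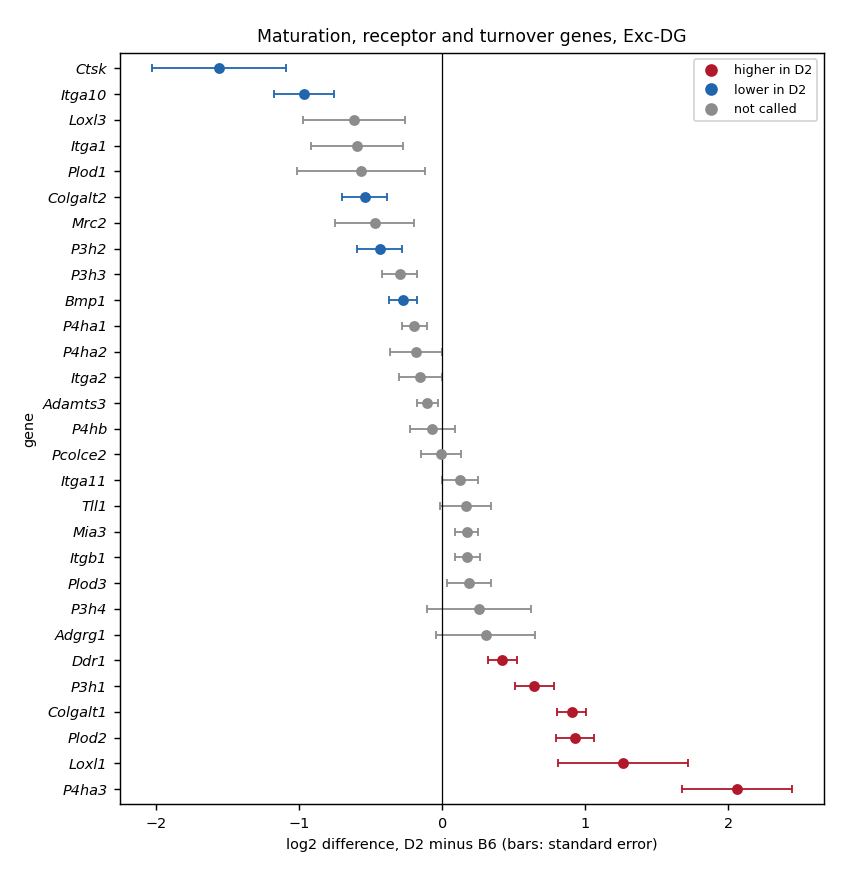
Log2 difference, D2 minus B6, with standard errors, of the 29 tested genes of collagen maturation, receptors and turnover in Exc-DG, ordered by size. P4ha3 stands at 2.06 on 52 counts in all and Ctsk at -1.56 on 48, and DESeq2 called neither. Colgalt1 and Plod2 stand at 0.90 and 0.93 on 1707 and 632 counts, and 18 genes are uncalled.

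Accessible chromatin at the start sites was read in the snATAC-seq libraries of the same cell type, whose totals were 24157723 and 21463891 counts in B6 and 18111758 and 27815541 in D2. A peak within 500 bp of a start site was found for 36 of the 44 members, Col4a1 and Col4a2 sharing 1 peak and Col4a3 and Col4a4 another. The strains are described with no test. D2 was above B6 in both libraries for 9 of the 36 and below for 12, and 15 overlapped, where of 297387 peaks with at least 10 counts 18.8% were above and 25.3% below. Of the 7 members with a called transcript, 6 had such a peak. At Col23a1 it read 12 and 11.4 CPM in B6 and 7.01 and 8.38 CPM in D2, and its log2 ratio of means was -0.60. D2 was also below B6 at Col5a1 (13.9 and 14.9 CPM in B6 and 12.1 and 12.7 CPM in D2), Col5a2 (3.73 and 4.10 CPM in B6 and 2.76 and 3.60 CPM in D2) and Col25a1 (26.9 and 28.5 CPM in B6 and 25.5 and 26.4 CPM in D2). At Col6a1 the order was reversed, as in its transcript, with 1.28 and 1.58 CPM in B6 and 2.04 and 1.73 CPM in D2 on 150 counts in all. At Col11a1 the peak read 13.8 and 11.5 CPM in B6 and 9.33 and 12.2 CPM in D2, and the strains overlapped. Its log2 ratio of means was -0.23, near the -0.22 of Col5a1, and its transcript had the largest log2 difference of the tested members. At Col4a1 and Col4a2, whose transcripts were not called, the shared peak read 28.2 and 29.7 CPM in B6 and 24.0 and 29.8 CPM in D2. The Col6a6 peaks had the lowest log2 ratio of means of the 36 members (-0.70), while its transcript overlapped between strains (0.04). At Col24a1 and Col14a1, D2 was above B6 at the peak and below B6 in the uncalled transcript. At Col10a1, Col11a2, Col16a1 and Col22a1, also uncalled, peak and transcript went the same way. Whether peaks follow transcripts was not tested.

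**Figure D4:**
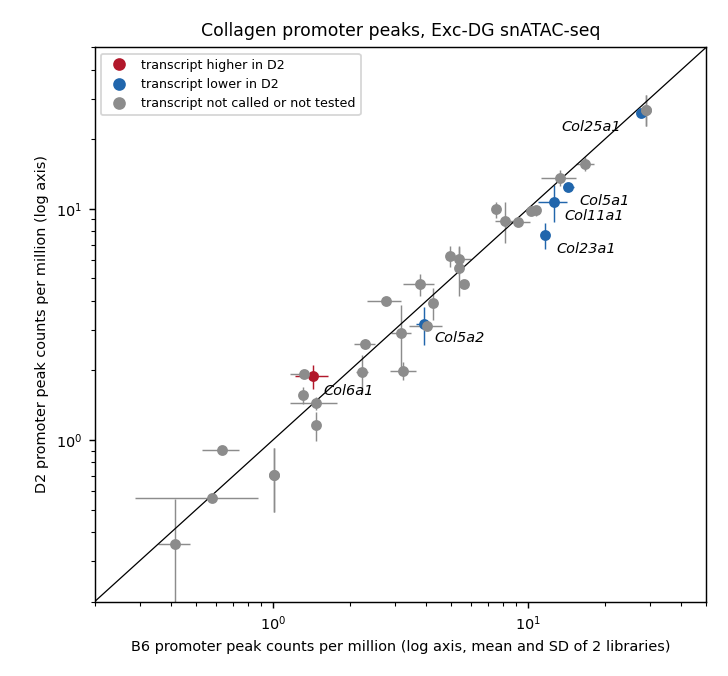
Mean CPM of the promoter peaks of 36 collagen genes in D2 against B6, Exc-DG snATAC-seq, on log axes, with SD bars over 2 libraries and a line of equality. Genes that share a peak have the same point. Points are colored by the call of the transcript. Col23a1 lies below the line and Col6a1 above it. Col11a1 also lies below it (log2 ratio of means -0.23), with libraries that overlap between strains.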

How the data were processed

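The deposited snRNA-seq and snATAC-seq tables hold raw counts that the authors summed over the nuclei of each cell type and library. RNA reads were processed with Cell Ranger 6.0.2, introns included, and ATAC reads with Cell Ranger ATAC 2.0.0. B6 reads were mapped to mm10 and D2 reads to mm10 carrying D2 variants, so mapping and counting could differ between strains. The annotation release behind the counts is not given in the sources used here. Nuclei were annotated with Seurat 4.0.5 after doublets had been removed.

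The tables number libraries 2 and 3 and the labels replicates 1 and 2, so columns were given to strains only. Only Exc-DG was analysed, and 120 columns, those of all other cell types, were not used. The planned strain tests in other cell types, the test of a strain difference that varied between types and the description of levels by type were not run. The numbering of libraries does not by itself prevent a strain test within another type. Strains were compared in Exc-DG with edgeR 4.0.16 (R 4.3.3), with TMM normalization, filterByExpr and glmQLFTest, and with DESeq2 1.42.0 as an alternative. Standard errors, given after ±, are the absolute log2 difference divided by the square root of the edgeR test's F statistic. The fits were also run on simulated counts in which no transcript was made absent from a strain, and that outcome is not reported here. An exact permutation test of 2 against 2 libraries cannot go below p = 0.333. The edgeR p-values set the strain difference against the spread between these pooled libraries, estimated with information shared over transcripts. Variation between single animals is not measured. Symbols were placed with the GENCODE annotation of GRCm38. Whether reads were counted by strand is not given in the sources used here.

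Members and gene lists were chosen with earlier results of these data known. Named genes were members called at a mean of at least 5 CPM, the 6 called list genes with the highest mean CPM and the first markers of a class a result touched, and other genes are said to be named after their values were seen or stand in counts of a role.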

Additional observations from a re-analysis of the deposited data

How the results depend on the processing

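Of the 7 called collagen transcripts, Col11a1, Col5a2, Col23a1, Col25a1 and Col6a1 kept their call under all 10 alternatives, and no called member or list gene changed direction under any. DESeq2 called 5 members in place of 7 and 4 genes of the maturation, receptor and turnover list in place of 11. Requiring counts in both strains left 3997 called transcripts of 6382 and 6 called members. With every transcript of at least 1 count tested, 9 members were called, Col14a1 and Col2a1 being the additions. Leaving out 1 library gave 5 to 6 called members, 7 to 12 called list genes (7 without D2 library 3) and 4679 to 6461 called transcripts, with the lone library taken to vary like the other strain's pair. The library number as a replicate block gave 7 members, 9 list genes (Bmp1 and Loxl1 lost, adjusted p = 0.0546 and 0.0706) and 6395 transcripts. Deviations of same-numbered libraries from their strain means correlated at -0.055 over 12087 transcripts. Whether same-numbered libraries share more than the number cannot be told from this value alone. Adding the counts of symbols inside members, chosen after seeing the data, left 7. Start sites with a peak within 1000 bp numbered 37 in place of 36. Alternatives that need other cell types (adjustment over all types, the strain by type fits, levels per nucleus, by strain or with TMM sizes) were not run. The call on Col6a4 rests on 86 counts in all. All values rest on 2 pooled libraries per strain.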
